A study of Mus musculus with 12 samples.

Results

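The 37 genes described here encode core parts of the cell division machinery, from the D-type cyclins that open the cycle to the motors and chromosome proteins of mitosis. They were taken as a fixed list of gene symbols, and all 37 were found among the 21938 protein-coding genes on the assembled mouse chromosomes (GENCODE vM21, mm10). The rule is the symbols alone and uses no measured value. Chromatin came from the cortex of postnatal day 2 *Gad67-GFP* heterozygote pups (mixed background, CD-1 outcross), with tissue of 2 to 3 litters pooled for a sample. In this line GFP sits in a single allele of *Gad1*, so it marks GABAergic cells, and both sorted populations carry the allele. FACS gave GFP+ cells, called CINs (immature cortical interneurons), and GFP- cells, called non-CINs, a mixture in which glutamatergic projection neurons and glia are enriched. Native ChIP for H3K27ac and for H3K27me3 was run in 2 replicates of each population, which gives 4 peak lists for each mark, and the 4 input samples served the peak calling.

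Cells that divide pass through an ordered programme. D-type cyclins and E2F factors drive entry into the cycle, the MCM helicase is loaded at origins, DNA is copied, and cyclin B with CDK1 and the Aurora and Polo kinases then drive mitosis. In cells that have left the cycle many of these genes are held down by retinoblastoma family proteins, E2F repressors and the DREAM complex, which act at promoter elements that include E2F sites and the cell cycle homology region (CHR). H3K27ac marks active promoters and enhancers, and H3K27me3 is laid down by Polycomb complexes at repressed or poised genes. Newborn cortical interneurons have left the cycle before they reach the cortex, whereas glial precursors of the early postnatal cortex still divide. The comparison of CINs with non-CINs therefore asks whether the cell cycle genes carry different histone marks in these populations. Division itself was not measured.

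3 measures were read for each gene and list. A promoter peak is a peak that overlaps by at least 1 bp the stretch from 1 kb upstream to 100 bp downstream of any annotated protein-coding start site of the gene. Covered bp is the length under peaks from 5 kb upstream of the gene to its end. The top percentile is the rank, within its own list, of the fold enrichment of the strongest peak in that stretch, where 100 is the strongest peak of the list. A gene was counted as higher in a population where its value was higher in both replicate numbers, and the values of the populations do not overlap where both lists of one lie above both of the other. With 2 lists against 2, the smallest *p* of an exact permutation test is 0.333, so no *p* is given, and counts over the whole list are set beside the share of all genes that met the same rule. A gene without a peak had none called, which is not the same as having no mark.

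The lists differed in size. The H3K27ac lists held 46040 to 62505 peaks over 40.8 to 56.3 Mb, and the H3K27me3 lists held 36662 to 45081 peaks over 34.5 to 49.8 Mb. Marker genes of 7 cell classes were read in the same way. Of 10 markers of CINs, 9 had an H3K27ac promoter peak in each CIN list and 1 or 2 did in the non-CIN lists. Over 10 progenitor markers the H3K27ac cover summed to 77039 and 73100 bp in the CIN lists and 88977 and 96490 bp in the non-CIN lists. All progenitor markers but *Eomes* had an H3K27ac promoter peak in every list, those of CINs included, and *Eomes*, the marker of intermediate progenitors, had no H3K27ac peak in 3 lists and 321 bp in the second non-CIN list. Over 5 astrocyte markers the sums were 29271 and 23040 bp against 41932 and 40534 bp, and over 5 oligodendrocyte precursor markers 16668 and 19056 bp against 18458 and 18161 bp. For 5 microglial markers they were 12878 and 11572 bp against 18169 and 15328 bp, with no H3K27ac peak at *Aif1* or *Tmem119* in any list, and for 5 endothelial markers 13131 and 7039 bp against 13548 and 8953 bp, with none at *Cldn5* or *Kdr*. The 8 pallial neuron markers had 16475 and 11581 bp in CINs, compared with 14016 and 14847 bp in non-CINs. Progenitor, astrocyte and microglial sums thus moved with the sorted population, and their part in the results below was not tested. In sorted bulk chromatin, fewer cells that carry a mark and less of the mark in each cell cannot be told apart.

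Nearly all cell cycle genes had an H3K27ac peak at the promoter in both populations. In CINs 34 and 35 of the 37 genes had a promoter peak (91.9% and 94.6%), and 35 and 34 in non-CINs. Over all protein-coding genes the shares were 54.2% and 49.8% in CINs against 53.1% and 48.8% in non-CINs. The promoter peak was present in all 4 lists at 32 of the 37 genes, against 46.5% of all genes. This count was 25 where a peak had to cover at least 200 bp of the promoter, and 28 with the strongest 30000 peaks of each list. The share of all genes was not computed under these settings. The exceptions were *Ccne1*, *Ccnb1*, *Mybl2*, *Mcm3* and *Mki67*. None of the 37 had a promoter peak in both CIN lists and neither non-CIN list (0.679% of all genes did), and none had the reverse (0.369% of all genes).

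These promoter peaks were short. Their median length was 867 and 1018 bp in the CIN lists and 1054 and 883 bp in the non-CIN lists, below the 1398, 1229, 1305 and 1224 bp of all genes with a promoter peak in the same lists. The median percentile of the promoter peak was 81.8 and 71.3 in CINs against 80.3 and 81.3 in non-CINs, where all genes with a promoter peak had 86.6, 84.0, 86.5 and 82.1. Around the gene's 5' end, the H3K27ac calls formed 2 shoulders with a dip between them. At 300 bp upstream 70.3% and 73.0% of the cell cycle genes were under a peak in CINs against 70.3% and 64.9% in non-CINs. At the 5' end itself the shares were 43.2%, 48.6%, 54.1% and 45.9%. By 1 kb inside the gene they had dropped to between 13.5% and 18.9%, at or below the 18.4% to 23.1% of all protein-coding genes.

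**Figure D1:**
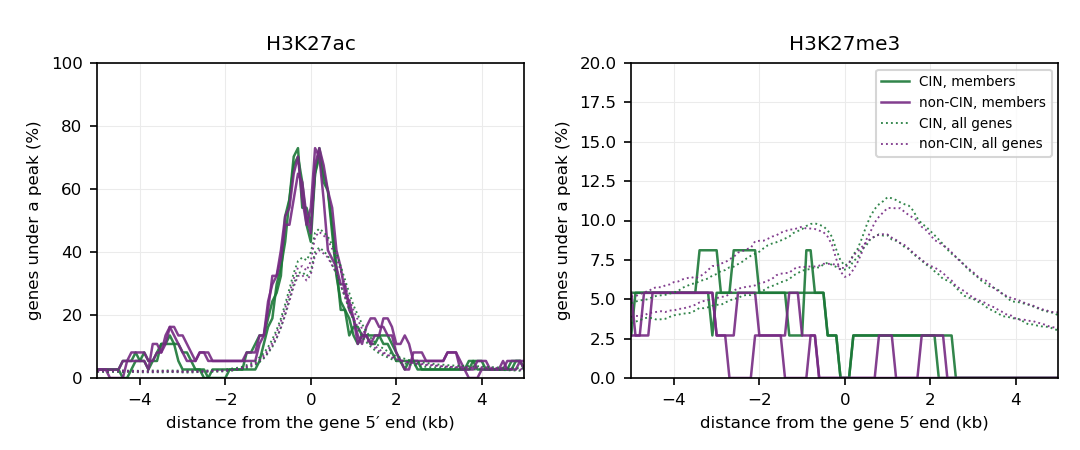
Share of genes under a peak (%) against the distance from the gene's 5' end (kb), for H3K27ac on the left and H3K27me3 on the right, with a separate line for each list (green, CINs and purple, non-CINs), solid for the 37 cell cycle genes and dotted for all 21938 protein-coding genes. The H3K27ac lines of both populations lie together and reach 73.0% near the start site in all 4 lists, and at most 3 of the 37 genes are under an H3K27me3 peak at any one distance, so the steps of those lines are single genes.

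In the amount of H3K27ac the genes split both ways. Covered bp was higher in CINs in both replicate numbers for 8 of the 37 genes (19.9% of all genes) and higher in non-CINs for 10 (19.5% of all genes). The values did not overlap for 6 genes higher in CINs (12.1% of all genes) and for 8 higher in non-CINs (12.0% of all genes). Since 14672 of all genes had any H3K27ac peak and all 37 cell cycle genes did, the shares among genes with a peak are a closer background. They were 29.8% and 29.2%, against 21.6% and 27% of the cell cycle genes, and without overlap 18.1% and 18.0%, against 16.2% and 21.6%. For the top percentile, 12 of the 34 cell cycle genes with a peak in every list were higher in CINs (35.0% of the 12456 such genes) and 10 were higher in non-CINs (26.8%). The median difference in top percentile, non-CINs minus CINs, was -0.92 in replicate 1 and -0.76 in replicate 2 for the cell cycle genes, and -0.05 and -0.93 for all such genes. These shares lie near the background on every measure.

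**Figure D2:**
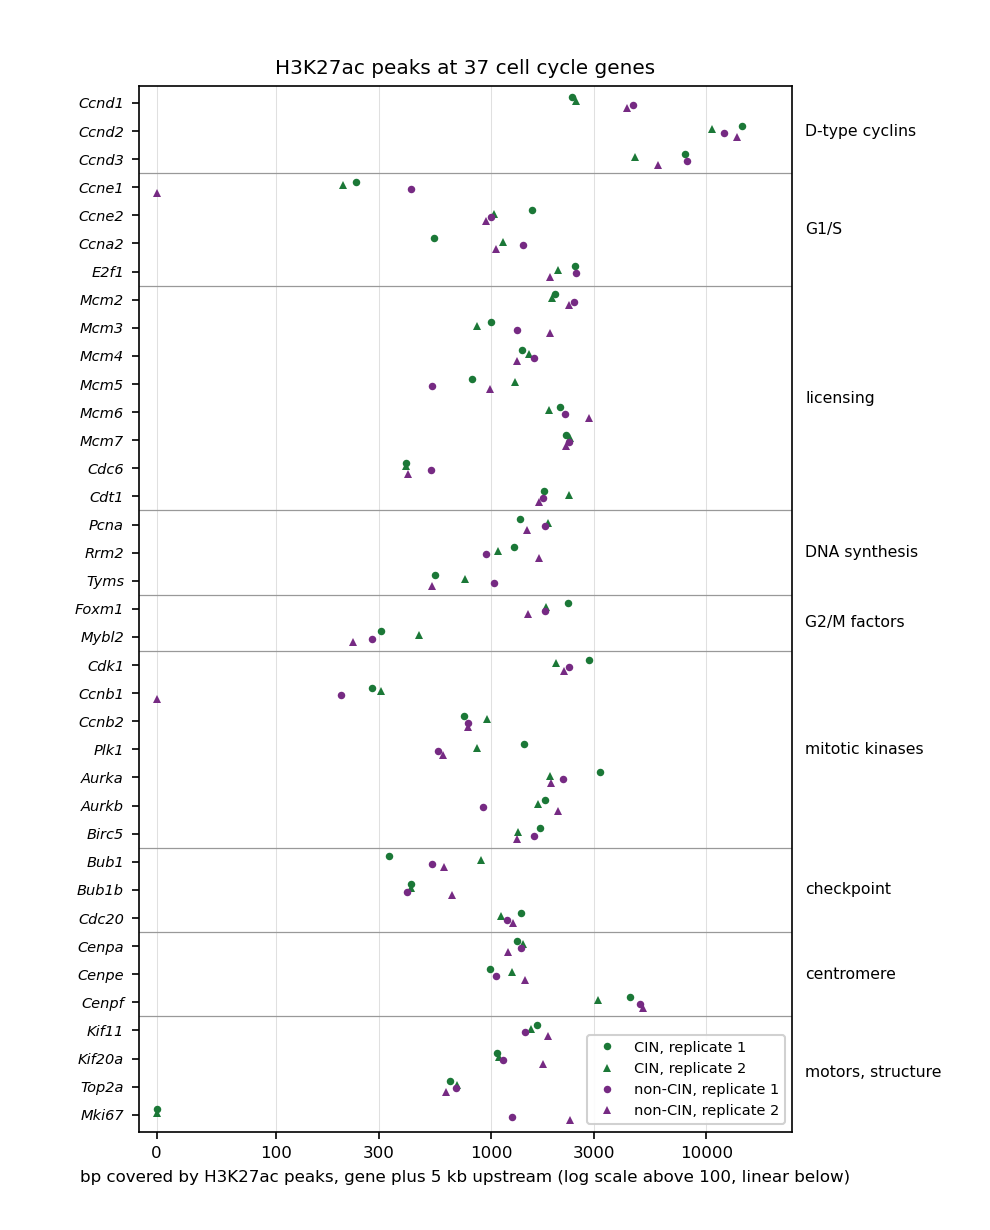
Length under H3K27ac peaks (bp, log scale above 100 and linear below) from 5 kb upstream to the end of each of the 37 genes, with 1 point for each list (green, CINs and purple, non-CINs, circles for replicate 1 and triangles for replicate 2) and the genes grouped by role. *Ccnd2* has the longest cover, 10656 to 14598 bp, *Ccnd1* and *Mki67* have more in both non-CIN lists, and for most genes the 4 points lie close together.

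The 2 measures did not always point the same way. Of the 34 genes with a peak in every list, 3 were higher in CINs by both measures (*Mcm5*, *Foxm1* and *Birc5*), where 13.9% of all such genes were. Another 3 were higher in non-CINs by both (*Ccnd1*, *Mcm3* and *Cenpe*), against 12.3% of all such genes. In 6 genes the measures pointed in opposite directions (*Ccne2*, *Plk1*, *Mcm6*, *Cdc6*, *Cenpf* and *Kif20a*), against 14.1% of all such genes, which is near the share of the cell cycle genes, and in all but *Ccne2* and *Plk1* the longer cover was in non-CINs and the stronger peak in CINs.

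The promoter sequences show which regulatory letters the genes share. RefSeq promoters of the GRCm38.p6 assembly, from 250 bases before to 50 after the start, were matched for 29 of the 37 genes, and not for *Ccnd1*, *Ccnd2*, *Ccne2*, *Ccna2*, *Mcm4*, *Foxm1*, *Aurkb* and *Kif20a*. Letters were searched on both strands. For E2F they were TTCCCGC and the variants TTGGCGC and also TTCGCGC and finally TTGCCGC. For the CHR they were TTTGAA and its variant TTCGAA, for the box bound by the NF-Y factor they were CCAAT, and for the TATA box TATAAA. E2F letters were in 10 of the 29 promoters (34.5%) against 9.69% of the 27025 promoters of the table. CHR letters were in 14 (48.3%) against 19.4%, and CCAAT in 21 (72.4%) against 37.9%. All 14 promoters with CHR letters also held CCAAT, a pair present in 7.70% of all promoters. TATAAA was in none of the 29 (14.2% of all promoters). Median GC content was 58.0% for the 29 and 52.7% for all promoters. By role, E2F letters were in 6 of 7 licensing promoters, whereas CHR letters were in all 3 checkpoint promoters, in all 3 matched promoters of motors and chromosome structure and in 4 of 6 of the mitotic kinases and cyclins. The last group also holds survivin (*Birc5*), whose promoter had no CHR letters. E2F and CCAAT matches share bases in 2 promoters, those of *Mcm7* and *Ccnb1*. A match of letters is not a bound site. The 4 promoters given here run 5' to 3' on the strand of the gene, and have capitals for E2F, CHR and CCAAT letters on either strand. *Mcm6* stands for the E2F promoters of licensing genes, *Top2a* for CHR and CCAAT together, *Cdk1* for all 3 kinds, and *Mki67* is the gene without an H3K27ac promoter peak. They lie at chr1:128359656-128359955 (*Mcm6*), chr11:99024140-99024439 (*Top2a*), chr10:69352863-69353162 (*Cdk1*) and chr7:135716330-135716629 (*Mki67*), all on the minus strand.
Mcm6: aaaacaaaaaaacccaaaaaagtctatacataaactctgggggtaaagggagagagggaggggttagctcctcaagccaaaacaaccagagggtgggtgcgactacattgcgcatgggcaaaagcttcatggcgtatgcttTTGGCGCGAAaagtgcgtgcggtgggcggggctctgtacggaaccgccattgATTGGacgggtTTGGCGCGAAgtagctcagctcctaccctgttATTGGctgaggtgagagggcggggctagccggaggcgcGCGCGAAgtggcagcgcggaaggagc
Top2a: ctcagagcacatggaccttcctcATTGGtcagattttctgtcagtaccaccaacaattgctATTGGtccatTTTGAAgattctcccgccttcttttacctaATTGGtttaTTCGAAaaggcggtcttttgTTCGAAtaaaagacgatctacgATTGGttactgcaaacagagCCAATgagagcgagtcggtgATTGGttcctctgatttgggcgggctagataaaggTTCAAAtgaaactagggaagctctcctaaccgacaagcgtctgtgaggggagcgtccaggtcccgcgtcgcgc
Cdk1: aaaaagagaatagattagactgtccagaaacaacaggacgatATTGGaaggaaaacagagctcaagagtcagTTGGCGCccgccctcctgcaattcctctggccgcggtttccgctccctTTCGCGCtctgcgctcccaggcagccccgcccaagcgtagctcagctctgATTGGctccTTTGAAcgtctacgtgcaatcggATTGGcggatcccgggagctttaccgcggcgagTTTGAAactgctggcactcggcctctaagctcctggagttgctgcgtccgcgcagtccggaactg
Mki67: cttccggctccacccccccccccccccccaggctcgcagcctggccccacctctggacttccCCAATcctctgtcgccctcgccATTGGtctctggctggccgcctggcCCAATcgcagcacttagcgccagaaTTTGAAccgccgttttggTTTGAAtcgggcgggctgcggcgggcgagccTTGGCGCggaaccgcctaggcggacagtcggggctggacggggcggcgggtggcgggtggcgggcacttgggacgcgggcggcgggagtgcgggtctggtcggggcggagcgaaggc

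The *Mcm6* promoter holds 5 E2F matches and no CHR letters, and 4 of these matches overlap in pairs on opposite strands. That of *Top2a* holds 4 CHR and 6 CCAAT matches and no E2F letters. The promoters of *Cdk1* and *Mki67* each hold 2 CHR and 3 CCAAT matches, with 2 E2F matches in *Cdk1* and 1 in *Mki67*. The *Mki67* promoter, at 72.7% GC, is richer in G and C than that of *Top2a* at 47.7%.

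*Mki67*, which encodes the proliferation marker Ki-67 that coats mitotic chromosomes, was the only cell cycle gene with no H3K27ac promoter peak in any list (chr7:135689784-135716361, minus strand). It had 0 bp in both CIN lists, 1250 bp in non-CIN replicate 1 and 2332 bp in non-CIN replicate 2. All of this cover lay inside the gene, in introns and coding exons, and the 2 longest peaks were 1050 and 825 bp long and ended 3407 and 3501 bp from the start site. In non-CIN replicate 2 a further peak of 272 bp began 120 bp inside the gene, just beyond the promoter limit. The peaks were weak for their lists, with the strongest at percentile 35.8 and 32.4. *Mki67* was thus the only 1 of the 37 genes with H3K27ac in both non-CIN lists and none in either CIN list, a pattern found in 0.383% of all genes and noticed after the values were seen. With only peaks of −log10 *q* of at least 4, the 825 bp peak of non-CIN replicate 2 alone remained, so the contrast rests on weak calls. *Top2a*, the topoisomerase of dividing cells, showed no such contrast (chr11:98992943-99024189, minus strand). Its H3K27ac cover was 645 and 695 bp in CINs, compared with 688 and 619 bp in non-CINs, and its top percentile was 72.2, 55.1, 65.2 and 67.7, so the populations overlap on both measures.

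By the mean top percentile over the 4 lists, the kinesins *Kif11* and *Kif20a* ranked highest, although other genes, among them *Ccna2*, *Mcm5* and *Pcna*, were above both in single lists. *Kif11*, which pushes spindle poles apart, had the highest mean, with 99.2 and 98.4 in CINs against 99.7 and 96.6 in non-CINs. Its cover was 1635 and 1535 bp against 1442 and 1843 bp, and neither measure separated the populations. *Kif20a*, a kinesin of cytokinesis, had percentiles of 98.7 and 98.8 in CINs against 97.3 and 96.3 in non-CINs, and its cover of 1068 and 1085 bp in CINs lay below the 1134 and 1738 bp of non-CINs. The start site of *Brd8* lies in the same promoter stretch, so the peak there belongs to both genes.

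Among the 3 centromere genes, *Cenpf*, a kinetochore protein, had 4416 and 3128 bp under H3K27ac in the CIN lists and 4924 and 5095 bp in the non-CIN lists, without overlap. Most of this was not at the promoter. In every list a peak of 2639 to 3371 bp began 41029 to 41357 bp into the gene, and it was the strongest of the gene, at percentile 93.8 and 95.5 in CINs against 91.3 and 94.8 in non-CINs. *Cenpe*, a kinetochore motor, was higher in non-CINs by both measures within each replicate number. It had 988 and 1254 bp in CINs against 1054 and 1429 bp, with overlap, and percentiles of 85.1 and 72.4 against 92.3 and 90.1, without overlap. *Cenpa*, the histone variant of centromeres, was near level, with 1313, 1399, 1370 and 1199 bp and percentiles between 84.7 and 86.4.

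The 3 checkpoint genes all had an H3K27ac promoter peak in every list (46.5% of all genes did). None was called on covered bp, where 29.8% of all genes with a peak were higher in CINs and 29.2% in non-CINs. *Bub1* had more cover in CINs with −log10 *q* of at least 4, as did *Bub1b* and *Cdc20* in the gene body alone. With covered bp scaled by the summed peak length of each list, *Bub1b* had more in non-CINs. *Cdc20*, the activator of the anaphase-promoting complex, had top percentiles of 79.5 and 71.3 in CINs against 68.2 and 67.0 in non-CINs, which do not overlap, with 1372, 1116, 1189 and 1259 bp covered. *Bub1b* had 423 and 423 bp in CINs, compared with 408 and 658 bp in non-CINs.

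The group of 7 mitotic kinases and cyclins also holds survivin (*Birc5*). Of the 7, 3 had more H3K27ac cover in CINs within both replicate numbers (*Ccnb1*, *Plk1* and *Birc5*) and none had more in non-CINs, against 29.8% and 29.2% of all genes with a peak. *Ccnb1*, the cyclin B1 partner of CDK1, had the shortest mean cover over the 4 lists, although *Ccne1* and *Mki67* had less in both CIN lists. It had 279 and 308 bp in CINs, 200 bp in non-CIN replicate 1 and 0 bp in non-CIN replicate 2, from a single promoter peak in each of the 3 lists that had any. That peak was at percentile 75.0 and 68.6 in CINs and 26.1 in non-CIN replicate 1. *Plk1*, the Polo kinase, had 1423 and 855 bp in the CIN lists and 565 and 595 bp in the non-CIN lists, without overlap, but its strongest peak ranked lower in CINs, at 42.3 and 50.4 against 82.1 and 80.8. With only peaks of −log10 *q* of at least 4, or only the strongest 30000 peaks of each list, *Plk1* turned and had more cover in non-CINs, and it was not called on the top percentile. *Birc5*, which encodes survivin, had 1683 and 1337 bp against 1586 and 1316 bp, with overlap and no longer called once covered bp was scaled by the summed peak length of each list, and percentiles of 95.3 and 96.9 against 94.9 and 92.4, without overlap. In the gene body alone, without the 5 kb upstream, *Birc5* turned and had more cover in non-CINs. *Cdk1* itself had 2835 and 1997 bp in CINs, compared with 2290 and 2168 bp in non-CINs, which overlap, and a stronger top peak in non-CINs, at 71.3 and 79.1 against 69.6 and 69.7.

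Of the transcription factors of the later cycle, *Foxm1* had 2265 and 1788 bp in the CIN lists and 1773 and 1488 bp in the non-CIN lists, and a top percentile of 91.2 and 83.6 against 85.5 and 82.5. The start sites of *Rhno1*, *Tex52* and *Gm44596* also lie in its stretch. *Mybl2*, which works with the DREAM subunits to turn on mitotic genes, had 307 and 464 bp against 279 and 227 bp. Its peaks were among the weakest, with the lowest mean top percentile of the genes that had a peak in every list, at 2.81 and 33.8 in CINs against 58.4 and 5.90 in non-CINs. *Mybl2* was no longer called on covered bp when this was scaled by the summed peak length of each list, with −log10 *q* of at least 4, with the strongest 30000 peaks, or in the gene body alone. *Foxm1* was not called with the strongest 30000 peaks or within 2500 bp of the 5' end.

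Genes of origin licensing differed in direction from each other. *Mcm2*, *Mcm3*, *Mcm6* and *Cdc6* had more H3K27ac cover in non-CINs without overlap, and *Cdt1* had more in CINs without overlap. *Mcm2*, a helicase subunit, had 1972 and 1921 bp in CINs, compared with 2433 and 2288 bp in non-CINs (chr6:88883474-88898780, minus strand), with percentiles of 89.2, 95.6, 98.8 and 93.6 that overlap. The start site of *Tpra1* lies within its stretch. *Mcm6* had 2080 and 1846 bp against 2211 and 2835 bp, although its strongest peak ranked higher in CINs, at 73.3 and 74.1 against 58.4 and 55.4. *Cdc6*, which loads the helicase, had 402 and 400 bp against 526 and 410 bp, and ranked at 86.9 and 81.0 in CINs against 49.1 and 58.6 in non-CINs. *Cdt1*, its partner in loading, had 1754 and 2300 bp in the CIN lists and 1744 and 1663 bp in the non-CIN lists, with overlapping percentiles of 92.5, 92.1, 94.5 and 89.0. Neither *Cdc6* nor *Cdt1* was called on covered bp scaled by the summed peak length of each list, with the strongest 30000 peaks, or in the gene body alone. *Cdt1* was also not called with −log10 *q* of at least 4. On the top percentile, *Cdc6* was not called with the strongest 30000 peaks or in the gene body alone.

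*Mcm3* was the only licensing gene higher in non-CINs by both measures (chr1:20802968-20820312, minus strand). It had 993 and 862 bp under H3K27ac in CINs, compared with 1317 and 1884 bp in non-CINs, and its strongest peak ranked at 55.0 and 52.5 against 88.4 and 83.8, so neither measure overlaps. The peak in question was not at the promoter. Its near edge was 2807 to 3109 bp upstream in the 4 lists, and it was 608 and 862 bp long in CINs against 910 and 1484 bp long in non-CINs, and no other protein-coding start lies in the 5 kb read. A promoter peak of *Mcm3* was called only in non-CIN replicate 2, where it was 200 bp long. *Mcm5*, by contrast, was higher in CINs by both measures within each replicate number, with 812 and 1283 bp against 530 and 985 bp, which overlap, and percentiles of 97.4 and 99.5 against 93.3 and 97.0, which do not.

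**Figure D3:**
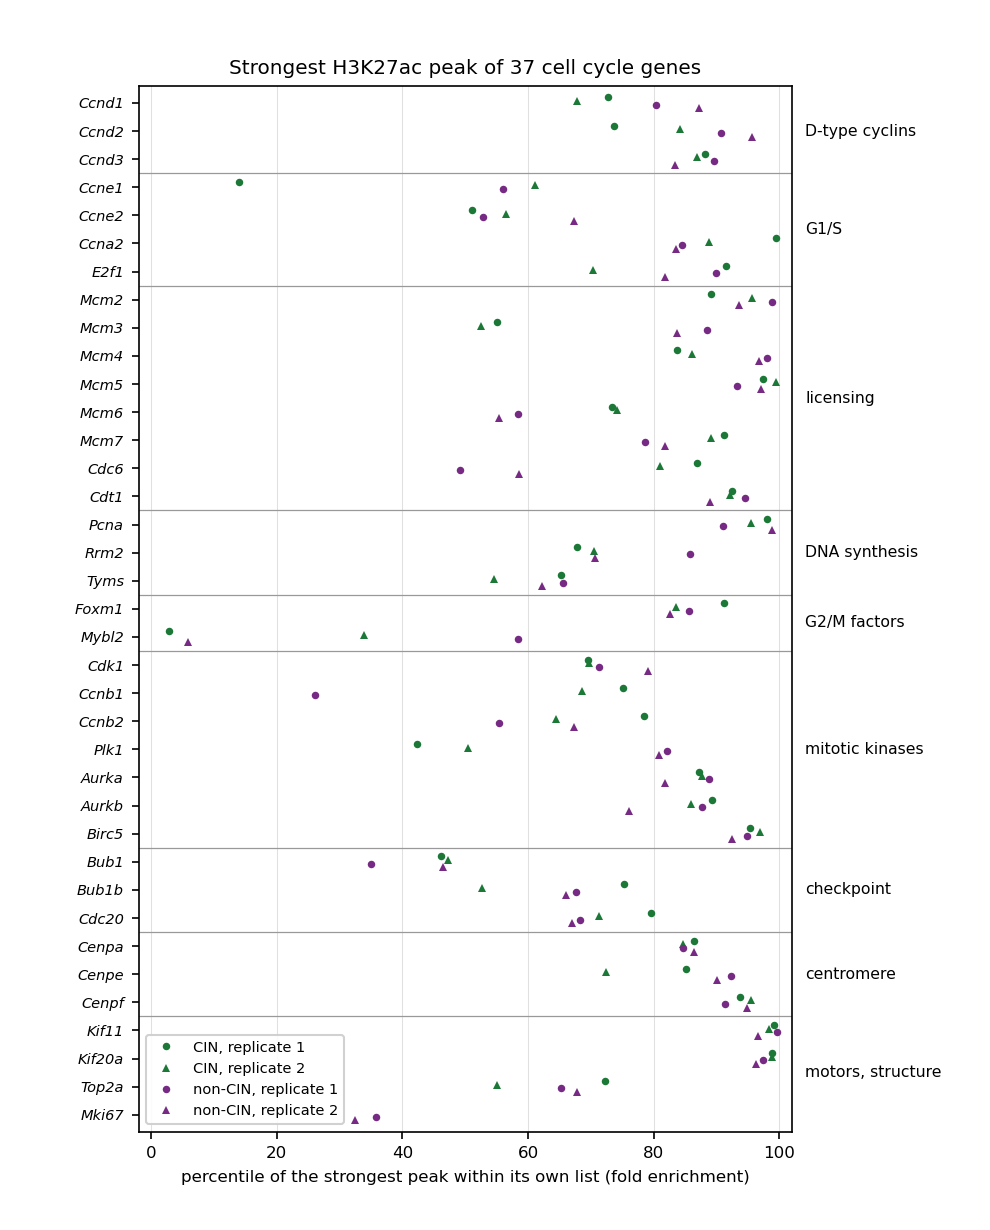
Percentile, within its own list, of the fold enrichment of the strongest H3K27ac peak from 5 kb upstream to the end of each of the 37 genes, with colours and symbols for population and replicate as in the plot of covered bp and no point where no peak was called. *Mcm3* and *Plk1* rank higher in both non-CIN lists, *Mcm6* and *Cdc6* in both CIN lists, and *Kif11* and *Kif20a* lie at 96.3 or higher in all lists.

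None of the 3 genes of DNA synthesis was called on covered bp, where 29.8% of all genes with a peak were higher in CINs and 29.2% in non-CINs. *Rrm2* and *Tyms* had a higher top percentile in non-CINs, as had 26.8% of all genes with a peak in every list. *Pcna*, the sliding clamp of DNA polymerases, had 1367 and 1828 bp in the CIN lists and 1784 and 1469 bp in the non-CIN lists (chr2:132249162-132253314, minus strand), with percentiles of 98.0, 95.5, 91.1 and 98.9. Its values overlap on both measures. *Rrm2*, a subunit of ribonucleotide reductase, had 1270 and 1081 bp against 944 and 1673 bp and percentiles of 67.8 and 70.5 against 85.8 and 70.6, without overlap, although 70.5 in CINs and 70.6 in non-CINs are near a tie. *Rrm2* had more cover in non-CINs with −log10 *q* of at least 4 or with the strongest 30000 peaks, and *Pcna* more in CINs in the gene body alone. *Rrm2* was not called on the top percentile with −log10 *q* of at least 4, and its strongest promoter peak ranked higher in CINs, at 67.8 and 41.5 against 55.3 and 36.7. *Tyms*, which makes thymidylate, had overlapping cover of 547, 756, 1026 and 532 bp, and its percentiles of 65.3 and 54.5 in CINs against 65.5 and 62.2 in non-CINs overlap as well.

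Of the G1/S genes, *Ccne2*, a cyclin E that activates CDK2, had 1555 and 1035 bp under H3K27ac in CINs, compared with 996 and 941 bp in non-CINs, without overlap, while its percentiles of 51.1 and 56.5 against 52.8 and 67.4 overlap. With the strongest 30000 peaks of each list, *Ccne2* turned and had more cover in non-CINs. *Ccne1* had 235, 204 and 422 bp in the first 3 lists and 0 bp in non-CIN replicate 2. *Ccna2*, the cyclin A of S phase, had overlapping cover of 543, 1136, 1400 and 1051 bp, but its promoter peak ranked higher in CINs, at 99.4 and 88.8 against 84.5 and 83.6. *E2f1* was called on neither measure, but had more cover in CINs with −log10 *q* of at least 4, with the strongest 30000 peaks, or within 2500 bp of the 5' end.

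The D-type cyclins had long cover reaching past the promoter. By the mean over the 4 lists *Ccnd2* and *Ccnd3* had the longest H3K27ac cover of the 37 genes, followed by *Cenpf* and *Ccnd1*. Covered bp is not scaled by the length read, which was 99641 bp for *Ccnd3*, with 4.66% to 8.18% of it under peaks. The start site of *Taf8* also lies in the stretch of *Ccnd3*. *Ccnd2* had 14598 and 10656 bp in the CIN lists and 12129 and 13919 bp in the non-CIN lists (chr6:127125162-127152193, minus strand). This was 7 to 10 peaks in each list, across the start site, the introns and the last exon. Covered bp overlaps between the populations, whereas the strongest peak ranked higher in non-CINs, at 90.6 and 95.7 against 73.7 and 84.2, without overlap. *Ccnd2* had more cover in non-CINs with −log10 *q* of at least 4, with the strongest 30000 peaks, or within 2500 bp of the 5' end. *Ccnd3* had 7963 and 4641 bp in CINs, compared with 8154 and 5943 bp in non-CINs, higher in non-CINs within each replicate number but with overlap.

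*Ccnd1*, the cyclin D that growth signals induce, differed in both marks and in opposite directions (chr7:144929931-144939925, minus strand). It had 2364 and 2469 bp under H3K27ac in the CIN lists and 4562 and 4295 bp in the non-CIN lists, and its strongest peak ranked at 72.7 and 67.7 against 80.3 and 87.2. Neither measure overlaps, and all 4 lists had an H3K27ac promoter peak. H3K27me3 covered 5006 and 5297 bp in CINs, 0 bp in non-CIN replicate 1 and 404 bp in non-CIN replicate 2. Its H3K27me3 peaks in CINs ranked at 82.4 and 90.9, and the short peak in non-CINs at 5.91. *Ccnd1* was the only 1 of the 37 genes with an H3K27me3 promoter peak in both CIN lists and neither non-CIN list, against 0.419% of all genes, and none had the reverse (0.242%). An H3K27me3 promoter peak only in CINs together with H3K27ac promoter peaks in all 4 lists was found in 0.191% of all genes, a combination defined after the values were seen. The progenitor marker *Hes1* had it as well. More H3K27me3 cover in CINs with more H3K27ac cover in non-CINs, in both replicate numbers, was also seen at the markers *Hes1*, *Olig1*, *Olig2*, *Emx1*, *Emx2* and *Gfap*.

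In CINs the marks lay over the same stretch of *Ccnd1*. In replicate 1, H3K27me3 ran from 3131 to 159 bp upstream and from 121 to 2153 bp inside the gene, and in replicate 2 from 3511 to 248 bp upstream and from 59 to 2091 bp inside. The length under both marks was 2021 of 2364 bp of H3K27ac in CIN replicate 1 and 2464 of 2469 bp in CIN replicate 2, and 58 bp in non-CIN replicate 2. Cells with both marks and a mixture of cells with either cannot be told apart in a sorted population. By promoter peaks in both replicates, *Ccnd1* was the only cell cycle gene with both marks in CINs (2.23% of all genes) and none had both in non-CINs (1.92%).

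**Figure D4:**
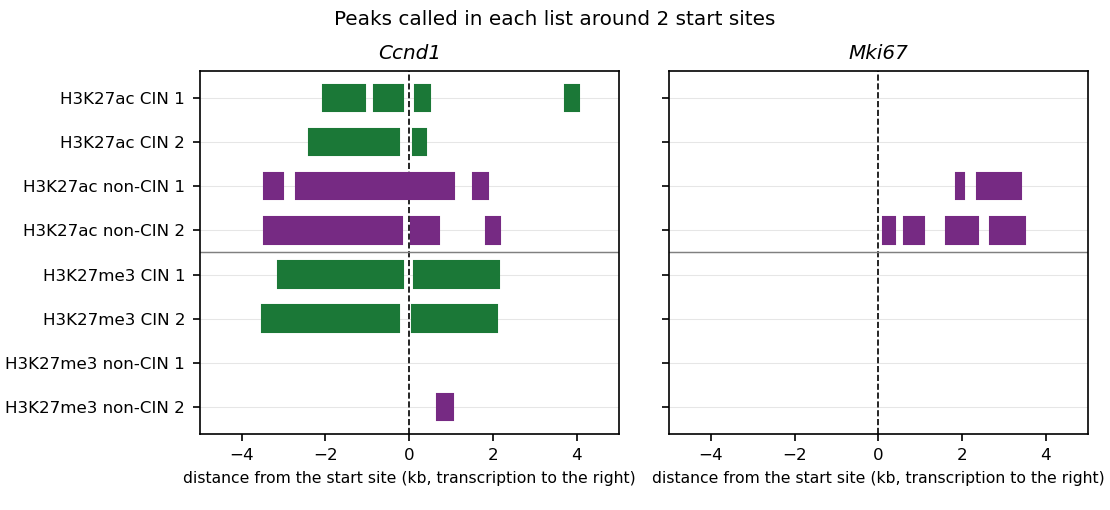
Peaks called in each of the 8 lists around the start sites of *Ccnd1* (left) and *Mki67* (right), drawn to scale against the distance from the start site (kb, transcription to the right), with CIN lists in green, non-CIN lists in purple, and the replicate number after each list's name. At *Ccnd1* the H3K27me3 blocks of 2033 to 3264 bp are in both CIN lists, with a 404 bp peak in a non-CIN list, and at *Mki67* the H3K27ac peaks lie downstream of the start in the non-CIN lists alone.

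Across the other genes H3K27me3 was rare. No H3K27me3 peak was called in any list for 33 of the 37 genes, against 59.2% of all genes. The 4 with any were *Ccnd1*, *Ccnd2*, *Bub1* and *Rrm2*, and no gene had an H3K27me3 promoter peak in all 4 lists (9.68% of all genes did). Covered bp was higher in CINs in both replicate numbers for 3 (6.81% of all genes) and in non-CINs for none (10.3%). Among genes with any H3K27me3 peak this was 3 of 4 cell cycle genes and none, against 16.7% and 25.4% of all such genes. Without overlap it was higher in CINs for *Ccnd1* alone (2.99% of all genes) and in non-CINs for none (4.53%).

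*Ccnd2* carried H3K27me3 in every list, at 4815 and 3708 bp in CINs, compared with 4342 and 3288 bp in non-CINs, values that overlap. Most of it lay upstream, from 1592 to 1777 bp before an annotated protein-coding start site out to 7556 to 8303 bp, beyond the 5 kb read. The gene's 5' end, from which the 5 kb is read, lies upstream of that start site and nearer to this H3K27me3. With promoters of the 5' end only, *Ccnd2* had an H3K27me3 promoter peak in all lists. The strongest peak in each list ranked at 97.6 and 97.9 in CINs against 96.1 and 97.5 in non-CINs. The noncoding gene *9330179D12Rik* overlaps this upstream stretch. In the replicate 1 lists a further peak, of 273 bp in CINs and 575 bp in non-CINs, lay in an intron. Length under both marks at *Ccnd2* was 1075 and 399 bp in the CIN lists and 3126 and 1786 bp in the non-CIN lists, the reverse of *Ccnd1*. *Bub1*, a kinase of the spindle checkpoint, had 1811 and 2953 bp in CINs, compared with 1713 and 2558 bp in non-CINs (chr2:127801122-127831865, minus strand), with overlap, while its strongest H3K27me3 peak ranked higher in non-CINs within each replicate number, at 87.7 and 95.8 against 75.7 and 95.5. Its H3K27me3 began 2006 to 3146 bp upstream and in CIN replicate 2 and non-CIN replicate 2 ran on into *Acoxl*, and no base of it lay under H3K27ac. The H3K27ac cover of *Bub1* was 335 and 893 bp in the CIN lists and 533 and 606 bp in the non-CIN lists, with overlap, and its top percentile of 46.1 and 47.3 against 34.9 and 46.4 was higher in CINs within each replicate number. *Rrm2* had a peak of 203 bp in CIN replicate 2 and of 332 bp in non-CIN replicate 1, both of low rank.

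**Figure D5:**
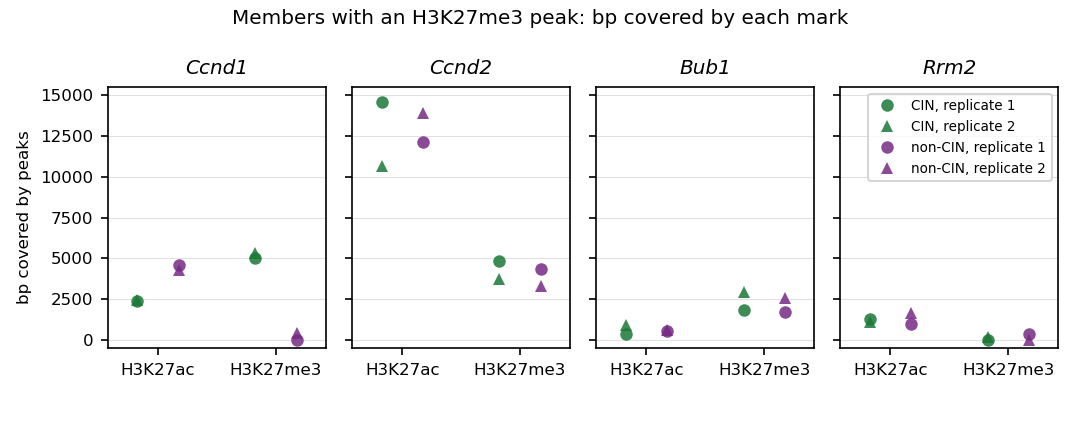
Length under H3K27ac and H3K27me3 peaks (bp) for the 4 cell cycle genes with any H3K27me3 peak, with 1 point for each list (green, CINs and purple, non-CINs, circles for replicate 1 and triangles for replicate 2). At *Ccnd1* the populations separate in both marks and in opposite directions, and at *Ccnd2*, *Bub1* and *Rrm2* the points of the populations overlap.

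A longer list of 60 other cell cycle genes was read in the same way. An H3K27ac promoter peak was in all 4 lists for 55 of them (46.5% of all genes) and in no list for 1, *E2f8*. *Gins2*, a subunit of the replicative helicase named here after its values were seen, had a promoter peak in both CIN lists only, and no gene had the reverse. Covered bp was higher in CINs for 14 (19.9% of all genes) and in non-CINs for 16 (19.5%). The top percentile was higher in CINs for 19 and in non-CINs for 17 of the 55 with a peak in every list, against 35.0% and 26.8% of all genes with one. By both measures, where those shares were 13.9% and 12.3%, 6 were higher in CINs (*Cdk4*, *E2f3*, *Orc6*, *Ttk*, *Tpx2* and *Pola1*) and 5 in non-CINs (*Wee1*, *Rb1*, *E2f6*, *Anln* and *Tk1*). *Cdk4*, the kinase that D-type cyclins activate, had 3338 and 2421 bp in CINs against 1734 and 1737 bp and ranked at 99.4 and 98.1 against 94.9 and 95.7, and its H3K27me3 cover was 0 bp in both CIN lists and 691 and 1104 bp in the non-CIN lists. *Rb1*, the retinoblastoma protein that this kinase phosphorylates, had 8540 and 8228 bp against 11199 and 9014 bp and ranked at 97.8 and 99.1 against 99.2 and 99.6. *Tk1*, the thymidine kinase of S phase, had 1484 and 1150 bp against 2755 and 2550 bp. *Pola1*, the catalytic subunit of DNA polymerase alpha, had 10160 and 8822 bp against 4005 and 4995 bp. H3K27me3 was called in any list for 16 of the 60 (40.8% of all genes), against 4 of the 37, and at the promoter in all 4 lists for 2, *E2f8* and *Bub3* (9.68% of all genes). H3K27me3 cover was higher in CINs for 2 of the 60 (6.81% of all genes) and in non-CINs for 3 (10.3%), where the 37 genes had 3 and none.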

How the data were processed

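H3K27ac and H3K27me3 were profiled by native ChIP-seq in CINs and non-CINs, with 2 replicates of each, and the 4 input samples entered only through the peak calling. Per the study's methods and the submitters' processing notes, reads were mapped to mm10 by BWA *mem* 0.7.15 and filtered by mapping quality in samtools, and MACS2 (2.2.7 in the notes) was run in broad mode on every replicate and its own input, with neither a model nor a local background. For each peak the authors deposited the fold enrichment, a ratio of ChIP to input, and the −log10 *q* of the peak caller. The deposited lists hold no read counts, so the depth behind a peak is unknown, and no interval is given.

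Fold enrichment was ranked within its own list and never compared between lists. Peaks were intersected with GENCODE vM21 genes in Python 3.11.15 with NumPy 2.4.6, and figures were drawn with matplotlib 3.10.9. Populations were compared within replicate numbers, as in the study's own design. The scripts were checked on planted differences and against bedtools 2.31.1.

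Genes whose values are given in every list are *Mki67*, *Top2a*, *Ccnd1*, *Ccnd2*, *Pcna* and *Mcm2*, those called by promoter peak, those with H3K27me3 in at least 2 lists, those whose H3K27ac cover does not overlap between populations, and the highest and lowest of each H3K27ac measure. Others are named as examples of their role group after their values were seen, and genes of the other lists mainly where both H3K27ac measures were higher in the same population. The genes and lists were chosen with earlier results of these data known.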

Additional observations from a re-analysis of the deposited data

How the results depend on the processing

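The peak calls set the limits. A peak below the authors' threshold is not listed, the lists differ in number and length, and 7 of the 37 windows hold another gene's start site. Of 128 recomputed counts, 95 stayed within 1.5 times the value reported. This compares counts alone, and the genes behind a count could change. In the gene body only, 11 genes had more H3K27ac cover in CINs, and 4 of them were among the 8 reported. The labels do not say whether CIN and non-CIN samples of the same replicate number came from the same sort. The study called differential peaks between the populations within each replicate. Populations with the same number deviated together across genes, by a correlation of 0.560 for H3K27ac covered bp, 0.303 for its top percentile, 0.918 for H3K27me3 covered bp and 0.391 for its top percentile, although there are 2 pairs only and genes are not independent. Without the replicate block, H3K27ac covered bp was higher in CINs for 6 genes and in non-CINs for 8, its top percentile for 8 and 8, H3K27me3 covered bp in CINs for 1 in place of 3, and the H3K27me3 top percentile in non-CINs for 0 in place of 1.

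With −log10 *q* of at least 4, or with the strongest 30000 peaks of each list, 1 gene (*Ccnb1*) had an H3K27ac promoter peak in CINs only in place of 0. With the strongest 30000 peaks, H3K27ac cover was higher in CINs for 4 in place of 8 genes, and the H3K27me3 top percentile in non-CINs for 0. *Mki67*, *Ccnd3* and *Cenpe* were no longer called on H3K27ac covered bp under either setting, whereas *Ccnd1* kept its direction in both marks. *Ccnd1*, *Mcm2*, *Mcm3*, *Mcm6*, *Cenpf* and *Kif20a* had more H3K27ac cover in non-CINs under both settings, with scaled cover, in the gene body only, and within 2500 bp of the 5' end. With promoters of 2 kb upstream to 500 bp downstream, or of the gene's 5' end only, 1 gene (*Ccnd2*) had an H3K27me3 promoter peak in all lists in place of 0, and genes with both marks became 2 in CINs and 1 in non-CINs. In the gene body only, H3K27me3 cover was higher in CINs for 1 gene, and its top percentile was higher for 0 in either population. That percentile was higher in CINs for 0 with −log10 *q* of at least 4, in non-CINs for 0 within 2500 bp of the 5' end, and for 0 in either population when only the strongest promoter peak was ranked, a setting chosen after seeing the data.

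Leaving out replicate 1 or 2 leaves a single pair of lists, so counts rise by construction. H3K27ac promoter peaks in CINs only then ranged from 0 to 2 and in non-CINs only were 1. H3K27ac cover was higher in CINs for 16 to 19 and in non-CINs for 18 to 21 genes, and its top percentile for 18 to 19 and 16 to 17. For H3K27me3 the promoter count in CINs only was 1 to 2, covered bp was higher in CINs for 3 to 4 and in non-CINs for 0 to 1, the top percentile was higher in CINs for 1 to 2, and both marks in CINs were found in 1 to 2 genes.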
